A study of Homo sapiens with 43 samples.

Results

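The regions described here are the Sox2 peaks that were found in the lung squamous cell carcinoma line NCI-H520 and in no other Sox2 list of the study. A peak of the NCI-H520 list on chromosomes 1 to 22 and X was kept when it shared not even 1 bp with a Sox2 peak of LK2, LK2_GFP, LK2_DNp63, HCC95, KNS62 or HCC2814. Of the 12048 NCI-H520 Sox2 peaks, 6345 (52.7%) met this rule and are called private sites, and the remaining 5703 are called other sites. The members were chosen by the measured positions of Sox2 peaks alone, and no H3K27ac, Brn2 or p63 value entered the choice. The whole study lists 66376 Sox2 peaks in 7 lists. Private means absent from 6 particular peak lists, and absence from a list of unknown depth is not absence of binding.

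The study mapped chromatin proteins by chromatin immunoprecipitation and sequencing (ChIP-seq) in established human cell lines of lung squamous cell carcinoma. H3K27ac, the acetylation of lysine 27 on histone H3, was mapped in 13 unmodified lines, with 2 libraries in LK2 and in NCI-H520 and 1 in each of Calu-1, EBC-1, HARA, HCC95, HCC2279, HCC2450, HCC2814, KNS62, LC-1/SQSF, NCI-H2887 and SQ-1. Sox2 was mapped once in each of HCC95, HCC2814, KNS62, LK2 and NCI-H520, and Brn2 once in each of NCI-H520 and LK2. LK2_GFP and LK2_DNp63 are derivatives of LK2 with Sox2 and H3K27ac lists, and LK2_DNp63 also has a p63 list. The labels do not say how these derivatives were made. No expression was measured, so the labelled cell type could not be checked against markers.

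Sox2 is a transcription factor of stem and progenitor cells whose gene is often amplified in squamous tumours of the lung. It binds enhancers, often beside a partner factor, and POU-domain factors such as Brn2, a factor of neural progenitors, are well-known partners. H3K27ac lies on active enhancers and promoters, promoters tend to carry it in many cell types, and enhancers carry it more selectively. A site with Sox2 and H3K27ac is therefore read as occupied chromatin in an active state, and a site with Sox2 alone as occupied chromatin without that mark.

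The files hold no read counts, so depth is unknown for every list. H3K27ac lists held 16470 to 43480 peaks, with 24619 and 29219 in the NCI-H520 libraries and 30641 and 16470 in the LK2 libraries. Sox2 lists held 4217 to 14048 peaks. Sox2 peaks of LK2_GFP overlapped 38.3% of the NCI-H520 sites, those of LK2 24.99%, those of LK2_DNp63 13.1%, those of HCC95 15.2%, those of HCC2814 9.44% and those of KNS62 7.85%. Of the other sites, 3266 were shared with an LK2 list alone (LK2, LK2_GFP or LK2_DNp63), 910 with HCC95, KNS62 or HCC2814 alone, and 1527 with both kinds. Without the derivative lists, 7604 sites would count as private.

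Few private sites lay at the edge of the rule. The nearest Sox2 peak of another list was at a median distance of 26899 bp, and it lay within 100 bp of 21 private sites and within 1000 bp of 267. On the other side of the edge, 20 other sites were overlapped by at most 100 bp. The median score was 72.2 at the 267 private sites and 68.2 at these 20 sites, close to each other.

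Private sites carried H3K27ac in NCI-H520 about 3.17 times as often as in the other lines on average. An H3K27ac peak of NCI-H520 overlapped 2986 private sites (47.1%, 95% Wilson interval 45.8 to 48.3) in library 1 and 3169 (49.9%, 48.7 to 51.2) in library 2, against 53.3% and 53.6% of all NCI-H520 Sox2 sites. The mean of the 12 other lines was 15.3% ± 2.09 (SD, n = 12 lines). Wilson intervals here cover counting error only. The 2 NCI-H520 libraries lay far above every other library, of which library 1 of LK2 was the highest with 21.4%.

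Among the other lines LK2 had the highest share, 18.6% ± 3.90 (SD, n = 2 libraries), with 21.4% in library 1 and 15.9% in library 2. LC-1/SQSF followed with 17.9%, KNS62 with 16.96% and HCC2279 with 16.4%. HCC2450 had 15.7%, HCC95 15.4%, HARA 15.1%, Calu-1 14.9%, NCI-H2887 14.6% and EBC-1 14.2%. The lowest shares were 12.2% in HCC2814 and 11.5% in SQ-1. The libraries of LK2 were further apart than LK2 was from LC-1/SQSF, so the order of these lines is not resolved. The derivatives stood close to LK2, with 19.1% in LK2_GFP and 16.7% in LK2_DNp63. Over all NCI-H520 Sox2 sites the shares were 33.2% and 26.9% in the LK2 libraries, 33% in LK2_GFP and 27.6% in LK2_DNp63. They were 24.5% in LC-1/SQSF, 23.2% in KNS62, 21.8% in HCC95, 20.5% in HCC2279 and 19.5% in HARA, and 19.2% in EBC-1, 18.9% in HCC2450 and in NCI-H2887, 18.5% in Calu-1, 16.8% in HCC2814 and 15.4% in SQ-1. At private sites each unmodified line was thus below its own level over all sites, and of these lines LK2 by the most.

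**Figure D1:**
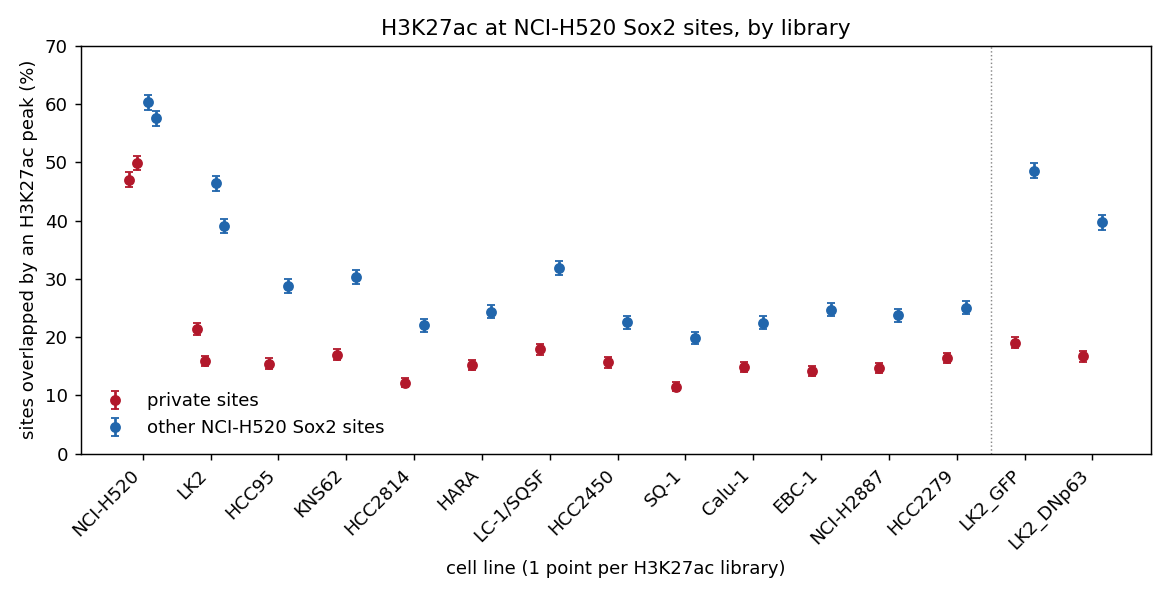
Share of sites overlapped by an H3K27ac peak (percent, vertical axis) in each cell line (horizontal axis), with 1 point per library, private sites in red, other NCI-H520 Sox2 sites in blue and 95% Wilson intervals as bars. The 2 NCI-H520 libraries reach 47.1% and 49.9% at private sites, above all other lines, and in every line the red points lie below the blue ones.

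NCI-H520 exceeded the mean of the 12 other lines by 33.2 percentage points, a ratio of 3.17, and was higher than 12 of 12 lines. In a two-sided exact permutation test over lines this gave p = 0.0769, the smallest that 1 line against 12 allows, and an adjusted p of 0.154 over the 4 tests made here (Benjamini-Hochberg). The design therefore cannot pass 0.05 for a single line. NCI-H520 is also the line whose Sox2 peaks supplied the sites, so it is not exchangeable with the 12 others. The test therefore cannot decide whether its rank is unusual, and no conclusion is drawn from it. Over all NCI-H520 Sox2 sites the excess was 32.8 points. At the other sites the excess was similar in points, 32.4, and smaller as a ratio, 2.22, because the other lines were acetylated there more often.

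The lower acetylation of private sites was seen in all 12 of the other lines. The share at private sites minus that at other sites was -11.2 percentage points on average (SD 4.67, n = 12 lines) and ran from -24.1 in LK2 to -6.88 in HCC2450 (two-sided exact sign-flip permutation p = 0.000488, the smallest that 12 lines allow, adjusted p = 0.00195). LK2, HCC95, KNS62 and HCC2814 supplied Sox2 lists to the rule, LK2 with its derivatives the most, so their differences are not independent of it. The p-value over 12 lines includes them. Without LK2 the mean was -10.0 (SD 2.44, n = 11 lines). In the 8 lines that have no Sox2 list, and so played no part in choosing the sites, every difference was also negative (exact permutation p = 0.00781 for 8 lines, a subset taken after the data were seen). The unit of these tests is the line, so the p-values measure how consistent the difference was over lines at a fixed set of sites. Most lines had a single library, so the spread between lines may in part be technical.

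The difference was not uniform over the kinds of other sites. At sites shared with an LK2 list alone, the 11 lines other than LK2 and NCI-H520 were acetylated in 9.70% ± 1.66 of cases (SD, n = 11 lines), below the 15.0% ± 1.89 of private sites. At sites shared with HCC95, KNS62 or HCC2814 alone they reached 48.7% ± 7.15, and at sites shared with both kinds 43.7% ± 7.23. In those 11 lines private sites thus stood between sites shared with LK2 lists alone and sites shared with HCC95, KNS62 or HCC2814. LK2 itself was acetylated at 41.8% of the sites shared with LK2 lists alone, against 18.6% of private sites.

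NCI-H520 also had less H3K27ac at private than at other sites. The libraries held 60.3% and 57.6% of the other sites, so that the difference was -13.2 points in library 1 and -7.66 points in library 2, and -10.4 on average. Compared with the 12 other lines this difference was 0.767 points smaller in size, and it was larger in size than in 7 of 12 lines and smaller than in 5 (exact permutation p = 0.923, adjusted p = 0.923). At private sites LK2 exceeded the mean of the 11 remaining lines, 15.0%, by 3.65 points (exact permutation p = 0.167, adjusted p = 0.222), in a design whose smallest possible p is 0.0833 and which therefore could not pass 0.05. The rule also removed every site with a Sox2 peak of LK2, LK2_GFP or LK2_DNp63, so LK2 is not exchangeable with the 11 lines. No conclusion is drawn from this test. LK2 was higher than 11 of 11 lines on the average of its libraries and lower than LC-1/SQSF, KNS62 and HCC2279 by library 2 alone.

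Around the site centres, H3K27ac formed a narrow rise. At the centre itself an H3K27ac peak was present at 41.9% and 43.1% of private sites in the NCI-H520 libraries, at 14.4% and 12.4% in the LK2 libraries and at 12.8% on average in the 11 other lines. At 1000 bp to the right the NCI-H520 shares were 30.0% and 29.2%, and at 5000 bp they were 9.30% and 9.55%. The mean of the 11 lines fell to 2.97% at 5000 bp. NCI-H520 therefore stayed above the range of the 11 lines over the whole window, also far from the sites.

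**Figure D2:**
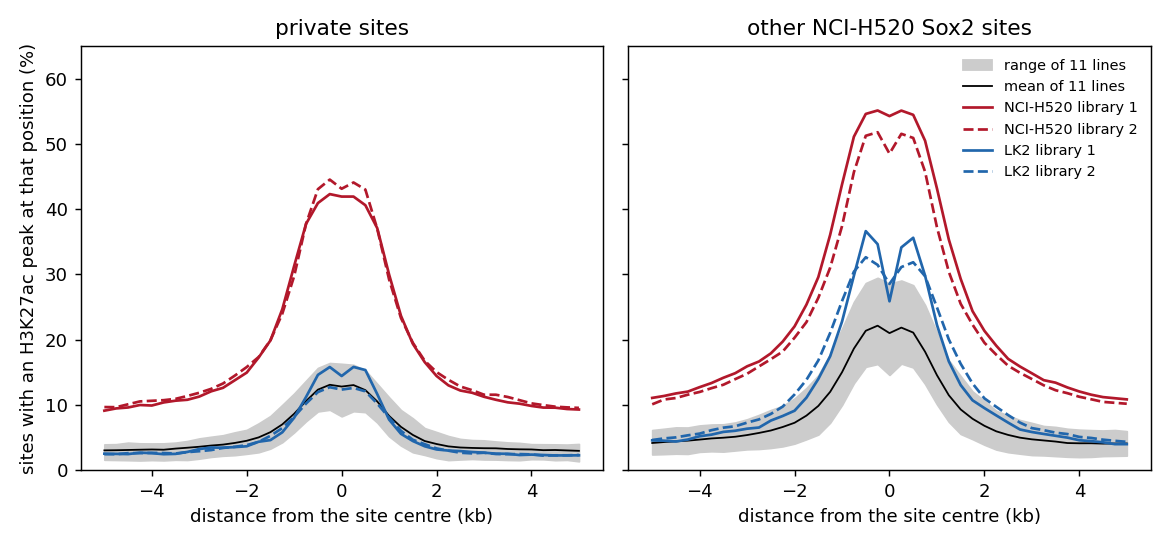
Percent of sites with an H3K27ac peak (vertical axis) at each distance from the site centre in kb (horizontal axis), for private sites on the left and other NCI-H520 Sox2 sites on the right, with red lines for the NCI-H520 libraries, blue lines for the LK2 libraries, a black line for the mean and grey for the range of the 11 remaining lines. At the centre of private sites the LK2 curves (14.4% and 12.4%) lie within the grey range (8.26% to 16.3%, mean 12.8%). At the centre of other sites they also lie within it (25.9% and 28.5%, range 14.6% to 28.6%, mean 21.005%). At 1000 bp to the left the LK2 curves lie above the range at other sites (22.8% and 25.9% against at most 21.7%). There they lie within it at private sites (8.05% and 8.20%, range 5.82% to 11.8%).

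Counted site by site, most private sites carried H3K27ac in no other line. Both NCI-H520 libraries marked 2584 private sites (40.7%; 46% of all NCI-H520 Sox2 sites), exactly 1 library marked 987 (15.6%; 14.9%), and no library marked 2774 (43.7%; 39.1%). No other line marked 4039 sites (63.7%; 48.4%), counting a line when any of its libraries had a peak. All 12 other lines marked 475 (7.49%; 9.06%), while 404 (6.37%; 10.4%) were marked in 4 to 9 of the 12. A further 1234 (19.4%; 28.2%) were marked in 1 to 3 other lines, 856 of them (13.5%; 19.2%) in exactly 1, and 668 (10.5%; 13.01%) in 10 to 12. Each of these counts of sites marked in other lines was thus a smaller share of the private sites than of all NCI-H520 Sox2 sites.

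The private sites were grouped by these marks. Sites marked in both NCI-H520 libraries and in no other line numbered 1045 (16.5%; 11.5% of all NCI-H520 Sox2 sites). Of these, 981 were also unmarked in LK2_GFP and LK2_DNp63 (15.5% of private sites; 10.2% of all NCI-H520 Sox2 sites). Sites marked in both NCI-H520 libraries and in all 12 other lines numbered 448 (7.06%; 8.62%). Sites marked in no line at all were the most frequent, with 2356 (37.1%; 29.5%), and 418 (6.59%; 9.65%) were marked in other lines but not in NCI-H520. The group marked in NCI-H520 alone made up 5.93% of the other sites (338).

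Where exactly 1 other line shared the mark of both NCI-H520 libraries (492 private sites, 7.75%; 11.6%), that line was LK2 at 352 sites (71.5%). LC-1/SQSF was the line at 50 sites, HCC2279 at 20 and Calu-1 at 14, and HCC2814 at none. Of the 900 other sites of this kind, LK2 was the line at 819 (91.0%). LK2 counts here when either of its 2 libraries had a peak, whereas the other 11 lines had 1 library each, which can raise its count. Marks in 2 to 11 other lines were found at 975 private sites (15.4%; 23.3% of all NCI-H520 Sox2 sites). At these 975 sites LK2 was 1 of the marked lines at 55.7%, close to LC-1/SQSF with 58.2% and KNS62 with 57.4%. LK2 therefore led where a single further line was marked, and did not lead at the sites marked more widely.

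**Figure D3:**
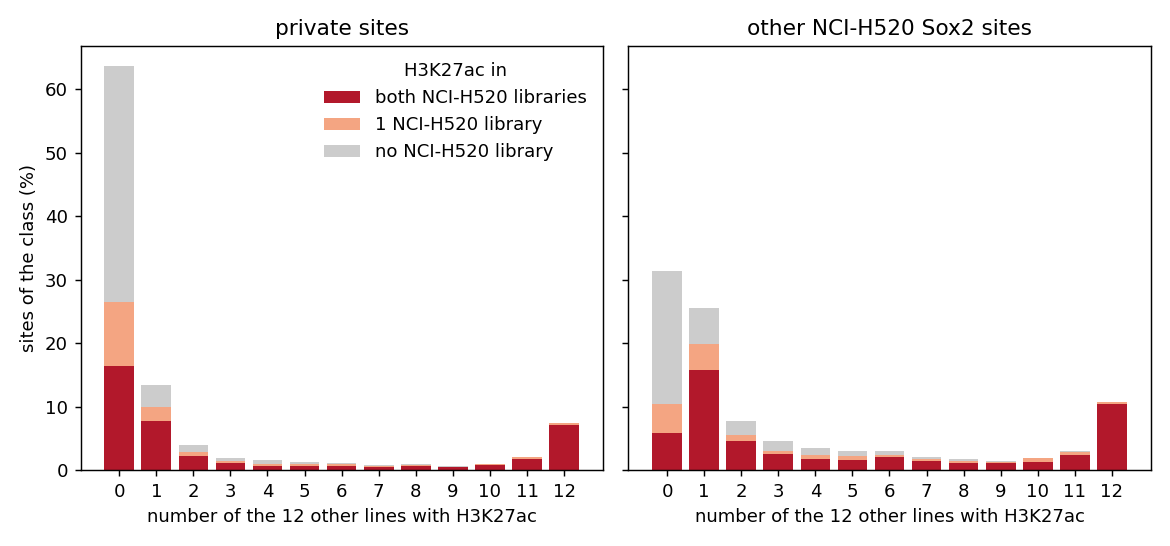
Percent of sites (vertical axis) by the number of the 12 other lines with H3K27ac (horizontal axis), for private sites on the left and other NCI-H520 Sox2 sites on the right, with bars split by how many NCI-H520 libraries had a peak. The private sites stand highest at 0 other lines (63.7%), with a small second rise at 12 (7.49%), and the bar at 12 is nearly all red, since 448 of its 475 sites were marked in both NCI-H520 libraries.

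Read from the side of the acetylated regions, the same link appeared. NCI-H520 had 16908 H3K27ac regions found in both libraries, and 2368 of them (14%) had no peak in any of the 12 other lines. Private sites lay in 717 of these 2368 regions (30.3%, interval 28.5 to 32.2) and other sites in 235 (9.92%, 8.78 to 11.2), against 14.4% and 16.3% of all 16908 regions. In the 6915 regions marked in all 12 other lines the order was turned, with private sites in 558 (8.07%, 7.45 to 8.73) and other sites in 695 (10.1%, 9.36 to 10.8). The 2 kinds of region were of like length, with medians of 2112.5 and 2291 bp. Per Mb of region, private sites numbered 127 in regions of NCI-H520 alone and 31.8 in regions of all lines.

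**Figure D4:**
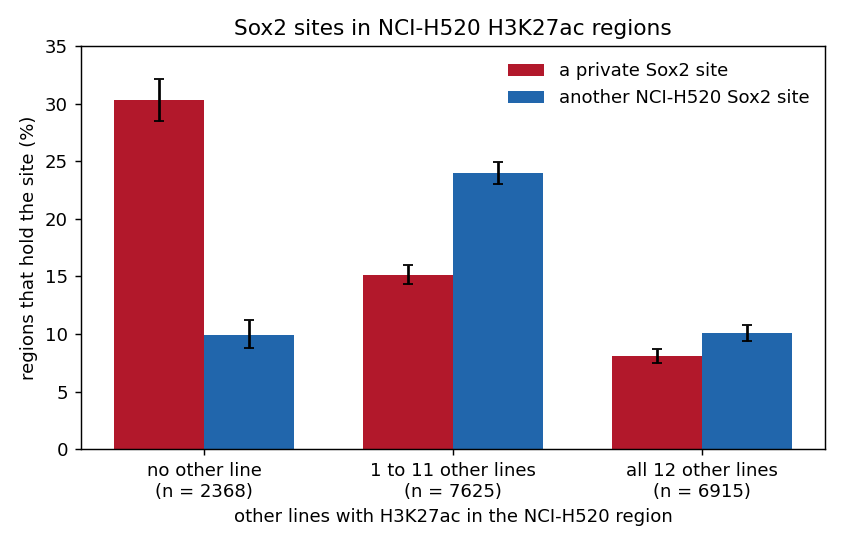
Percent of NCI-H520 H3K27ac regions (vertical axis, bars from 0, with 95% Wilson intervals) that hold a private site (red) or another NCI-H520 Sox2 site (blue), by how many of the 12 other lines have a peak in the region (horizontal axis). Private sites are in 30.3% of regions without a peak in another line and in 8.07% of those marked in all 12, and other sites are most frequent in between (23.9%).

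Private sites without the mark were mostly far from it. The 2774 private sites unmarked in both NCI-H520 libraries lay at a median distance of 49371.5 bp from the nearest NCI-H520 H3K27ac peak, and 305 of them (10.995%) lay within 5000 bp. The 1938 unmarked other sites had a median of 52723 bp and 10.5% within 5000 bp. The medians of both classes were thus close.

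The deposited score of a peak is the authors' own value and served only to rank peaks within the NCI-H520 Sox2 list. Private sites had lower scores, with a median of 75.3 and a median percentile of 39.1 within the list, against 103.9 and 62.8 for other sites. The rule and the score come from the same list, so this is a description without a test. Private sites made up 11 of the 100 highest-scoring peaks and 208 of the 1000 highest, and the best of them ranked 11. Their share rose from 22.5% in the highest decile of the list to 73.3% in the lowest. They were also somewhat narrower, with a median width of 446 against 505 bp.

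The score separated the acetylation groups among private sites. In the highest decile of the list, 40.6% of the 271 private sites were marked in both NCI-H520 libraries and in no other line, and in the lowest decile 10.998% of 882 were. Sites marked in NCI-H520 and all 12 other lines went the other way, from 0.369% in the highest decile to 11.8% in the lowest. Sites marked in no line rose from 17.3% to 41.0%. The median score was 92.8 at sites marked in NCI-H520 alone, 72.6 at sites marked nowhere and 65.8 at sites marked in all 13 lines. Other sites marked in NCI-H520 alone were rarer at every level, with 9.64% in the highest decile and 4.66% in the lowest. In both classes the sites marked in NCI-H520 alone had higher scores (median 131.4 for the other sites) than those marked in all 13 lines (91.0).

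**Figure D5:**
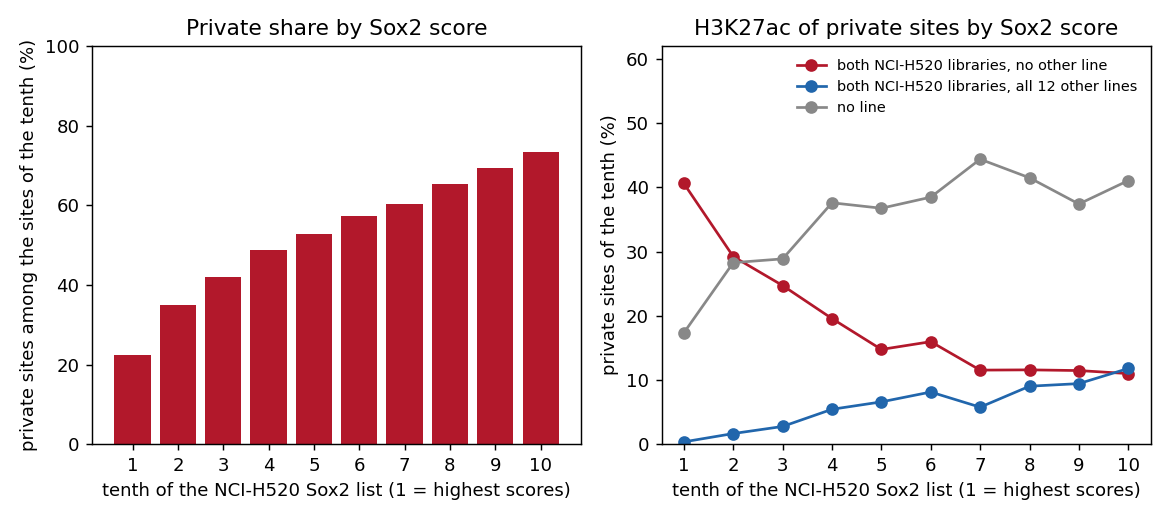
Left, percent of sites that are private (vertical axis) in each decile (10 equal parts) of the NCI-H520 Sox2 list by score (horizontal axis, 1 for the highest scores), and right, percent of the private sites of each decile that fall in 3 acetylation groups. The private share climbs from 22.5% to 73.3%, while the group marked in NCI-H520 alone falls from 40.6% to 10.998% and the group marked in all 13 lines climbs from 0.369% to 11.8%.

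The private site of highest score lay on chromosome 4, 1008021 to 1009290 (hg19, as are all coordinates), with a score of 872.1 and rank 11. It was marked in both NCI-H520 libraries and in LK2 and HCC95. Within 5 kb on either side, H3K27ac peaks covered 8.58 and 9.001 kb in the NCI-H520 libraries, 6.65 kb in HCC95 and 2.45 and 1.31 kb in LK2. Another list had a Sox2 peak 1537 bp away, so this site lay beside a site of another line.

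Of the 10 private sites of highest score, all were marked in both NCI-H520 libraries, 5 were marked in no other line, and none overlapped a Brn2 peak of either line or a p63 peak. In the highest decile of the list both NCI-H520 libraries marked 69.0% of private and 68.8% of other sites, nearly the same share. Marks in both libraries and in no other line were at 40.6% and 9.64%. Chromosome 7, 46255258 to 46256032 (rank 27), was marked in LC-1/SQSF as well, and chromosome 15, 58698897 to 58700112 (rank 30), in LK2. At chromosome 6, 170606147 to 170607591 (rank 33), marked in LK2 too, a Sox2 peak of another list lay 443 bp away. At chromosome X, 21923280 to 21924582 (rank 63), LK2 and LC-1/SQSF were marked, with 3.35 and 3.22 kb of H3K27ac in the LK2 libraries against 9.65 and 9.80 kb in NCI-H520. Among these 10 sites, 8 had the mark in at most 1 other line.

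The 5 sites without the mark elsewhere lay on chromosomes 8, 20, 5 and 1. At chromosome 8, 127987108 to 127987959 (rank 39), the NCI-H520 libraries covered 8.33 and 8.62 kb of the 10 kb around the site, and every other library of the study covered none. At chromosome 5, 123797296 to 123798171 (rank 76), the values were 7.59 and 7.91 kb, again with none in any other library. Chromosome 20, 31368579 to 31369096 (rank 59), had smaller peaks of 1.27 and 1.78 kb in NCI-H520 and none elsewhere. At chromosome 1, 44972459 to 44973957 (rank 78), NCI-H520 was covered throughout. Nearby, without touching the site, HCC95 had 1.55 kb, the LK2 libraries 0.312 and 0.319 kb, LK2_GFP 0.385 kb and LC-1/SQSF 0.117 kb. Chromosome 1, 185448834 to 185449448 (rank 88), had 8.73 and 8.55 kb in NCI-H520 and, nearby, 1.85 kb in HCC2814, 1.63 kb in HCC95, 0.541 and 0.889 kb in the LK2 libraries and 2.20 and 2.18 kb in LK2_GFP and LK2_DNp63.

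The remaining sites completed the 10 highest-scoring sites marked in NCI-H520 alone. Chromosome 5, 123774083 to 123775181 (rank 109), lay close to the chromosome 5 site above and had 5.70 and 6.85 kb in the NCI-H520 libraries and none elsewhere. Chromosome 2, 41989859 to 41990713 (rank 125), had 5.46 and 6.32 kb and none elsewhere, with the nearest Sox2 peak of another list 96158 bp away. At chromosome 16, 50560639 to 50561606 (rank 132), NCI-H520 was covered throughout. Beside the site LK2 had 1.05 and 1.66 kb, LK2_GFP 1.20 kb and LK2_DNp63 0.755 kb. Chromosome 1, 8497322 to 8497883 (rank 103), and chromosome 11, 95722104 to 95722706 (rank 138), had shorter peaks of other lines in the window. At 5 of these 10 sites the 10 kb window held H3K27ac of NCI-H520 and of no other library.

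Private sites marked in all 13 lines were lower in the list. The highest of them, chromosome 1, 39873953 to 39875631, ranked 1003, with 2.53 and 2.73 kb of H3K27ac in the NCI-H520 libraries and 7.19 kb in HCC95, 7.26 kb in HCC2450 and 7.29 kb in NCI-H2887. Chromosome 1, 1821473 to 1822011 (rank 1918), had 3.33 and 4.34 kb in NCI-H520 and 1.97 to 3.94 kb in the 12 other lines. Chromosome 19, 506913 to 507653 (rank 2011), overlapped a Brn2 peak of LK2. The other sites of this kind that ranked highest were chromosome 1, 14075603 to 14076031, and chromosome 10, 80733783 to 80734286. At the first of these, library 2 of LK2 had no H3K27ac in the window and library 1 had 1.26 kb.

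High scores also occurred without any H3K27ac. Chromosome 11, 19209262 to 19209784, had a score of 480.3 (rank 111) and no H3K27ac peak of any of the 17 libraries in the 10 kb around it. The same held for chromosome 9, 37251301 to 37252059 (rank 124), chromosome 10, 80339759 to 80340231 (rank 194), chromosome 16, 48905861 to 48906512 (rank 328), and chromosome 8, 33510682 to 33511217 (rank 362). The nearest Sox2 peak of another list was 27965 to 88827 bp away from these 5 sites. They held neither Brn2 nor p63 peaks.

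Brn2 was rarely found at private sites. Brn2 peaks of NCI-H520 overlapped 80 private sites (1.26%, interval 1.01 to 1.57; 1.92% of all NCI-H520 Sox2 sites), against 151 other sites (2.65%, 2.26 to 3.10). Brn2 peaks of LK2 overlapped 122 private sites (1.92%, 1.61 to 2.29; 10.5%), against 1144 other sites (20.1%, 19.04 to 21.1). The rule leaves every site with a Sox2 peak in an LK2 list among the other sites, and LK2 Brn2 was at 23.3% of those shared with LK2 lists alone, 21.8% of those shared with both kinds and 5.49% of those shared with HCC95, KNS62 or HCC2814 alone. At 40 private sites (0.63%; 1.08%) both lines had Brn2. The LK2 list is longer, with 4819 peaks against 1298, and with only as many of its highest-scoring peaks as the NCI-H520 list holds it reached 0.867% of private and 6.03% of other sites. From the side of Brn2, 82 of the 1298 NCI-H520 Brn2 peaks (6.32%) lay on a private site and 154 (11.9%) on another NCI-H520 Sox2 site. Chromatin for Brn2 was prepared in another way than chromatin for Sox2, with a second cross-linker and nuclease digestion, and the effect of this on the overlap was not tested.

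Most private sites with Brn2 were acetylated, often in many lines. Of the 80 with NCI-H520 Brn2, 87.5% and 90.0% were marked in the NCI-H520 libraries, 48.8% in each LK2 library and 45.7% on average in the 11 other lines. Of the 6183 private sites without Brn2 in either line, the shares were 46.2% and 49.2% in NCI-H520 and 14.3% on average in the 11 lines. All 12 other lines marked 24 of the 80 sites. Of the 151 other sites with NCI-H520 Brn2, 36 were marked in both NCI-H520 libraries and all 12 other lines, so wide marking was not particular to private sites. NCI-H520 Brn2 was found at 5.36% (3.63 to 7.85) of the private sites marked in all 13 lines, at 1.53% (0.945 to 2.47) of those marked in NCI-H520 alone and at 0.255% (0.117 to 0.555) of those marked nowhere. LK2 Brn2 was found at 11.2%, 0.766% and 0.637% of the same groups. Among private sites the share was highest for both Brn2 lists where H3K27ac was shared by all 13 lines. Other sites showed the same order for NCI-H520 Brn2, with 6.09%, 2.96% and 0.587% of the same groups. LK2 Brn2 did not follow it at other sites, with 15.9%, 18.3% and 18.4%.

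Brn2 was found at all levels of the Sox2 score. The 80 sites had a median percentile of 50.6, above the 39.1 of all private sites. In the highest decile of the list 8 of 271 private sites (2.95%) had NCI-H520 Brn2, and in the lowest 11 of 882 (1.25%). The highest by Sox2 score was chromosome 4, 1016104 to 1017329 (rank 678), near the private site of highest score and likewise marked in LK2 and HCC95. Chromosome 17, 28695923 to 28696593 (rank 708), was marked in KNS62, EBC-1 and HCC2279 besides NCI-H520. Chromosome 9, 8157964 to 8158445 (rank 720), chromosome 5, 168416709 to 168417621 (rank 1064), and chromosome 5, 124256742 to 124257509 (rank 1099), were marked in both NCI-H520 libraries and in no other line. So was chromosome 8, 9321010 to 9321809 (rank 1151), which belongs to a cluster described further on. Chromosome 20, 52015425 to 52016250 (rank 1402), had Brn2 in both lines and H3K27ac in NCI-H520 and LK2 alone, and chromosome 16, 82957592 to 82958433 (rank 946), had Brn2 and no H3K27ac in any line.

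The remaining Brn2 sites among the 10 of highest Sox2 score were chromosome 12, 107279159 to 107280041 (rank 877), marked in NCI-H520 and LK2, and chromosome 5, 169726319 to 169726843 (rank 1456), marked in library 1 of NCI-H520 alone. Of the 10, 9 lacked Brn2 in LK2, whereas of all 80 private sites with NCI-H520 Brn2, 40 had it in LK2 too. Peaks of p63, the lineage factor of basal and squamous epithelium, from LK2_DNp63 overlapped 38 private sites (0.599%; 1.38% of all NCI-H520 Sox2 sites).

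Most private sites stood alone. Chained over gaps of at most 10 kb, 5292 private sites were single, 403 chains held 2, 58 held 3, 12 held 4 and 5 held 5. The 75 chains of 3 or more are called clusters and held 247 sites (3.89%). Other sites chained among themselves gave nearly the same share, 202 of 5703 (3.54%), and all NCI-H520 Sox2 sites chained together, a denser set, gave 8.06%. Of the private sites, 661 (10.4%) had another site of NCI-H520 that was shared with a different list within 10 kb. Both classes thus consisted mostly of single or paired sites.

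Clustered private sites were acetylated far more often in NCI-H520 than the rest. H3K27ac covered 86.2% and 87.4% of the 247 clustered sites in the NCI-H520 libraries, against 45.5% and 48.4% of the 6098 single or paired ones. In the 12 other lines the mean was 9.68% at clustered and 15.5% at single or paired sites, and LK2 was highest in the clusters with 24.7%. Sites marked in both NCI-H520 libraries and in no other line were 44.9% of the clustered sites and 15.3% of the rest, and sites marked in no line were 8.10% and 38.3%. Other sites showed the same order in NCI-H520, with 96.5% and 95.05% of the 202 clustered ones marked in the libraries against 59.0% and 56.2% of the rest. In the 12 other lines their mean was 34.4% in clusters and 26.2% elsewhere, and this difference in direction was not tested. The scores of clustered private sites were moderately higher, with a median of 89.6 against 75.0. Several sites of a cluster can lie in 1 long H3K27ac peak, so they are not independent. NCI-H520 Brn2 was found at 1.21% of clustered sites and 1.26% of the rest.

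Shared neighbours went with a different pattern. The 661 private sites within 10 kb of a shared NCI-H520 site were marked in 75.0% and 76.9% of cases in the NCI-H520 libraries and in 35.9% and 32.2% in the LK2 libraries. The 5684 sites without such a neighbour reached 43.8% and 46.8% in NCI-H520 and 19.7% and 14.0% in LK2. The 11 remaining lines differed less, with means of 17.3% and 14.7%.

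The 5 clusters of 5 sites lay on chromosomes 17, 2, 1 and 8. On chromosome 8, 9463584 to 9488035, H3K27ac peaks covered the whole 24452 bp in both NCI-H520 libraries and none of it in any other library, and no Sox2 peak of another list lay inside. On chromosome 8, 9321010 to 9342838, NCI-H520 was again covered throughout, LK2 over 5.47% and 6.48% and the other lines not at all, and 1 of the sites carried NCI-H520 Brn2. On chromosome 2, 103583479 to 103596363, NCI-H520 was covered throughout and HCC2450 over 11.4%. All 5 sites of each of these 3 clusters were marked in both NCI-H520 libraries.

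On chromosome 1, 214473614 to 214493086, the NCI-H520 libraries covered 91.2% and 96.0% of the cluster, and LK2 library 1 and Calu-1 covered 2.95% and 3.20%. On chromosome 17, 65437021 to 65449876, the libraries differed, with 50.7% in library 1 and 95.6% in library 2, and 5 other lines covered 1.66% to 8.09%. Among the clusters of 4 sites with the shortest span, those on chromosome 3, 193882867 to 193889811, and chromosome 7, 126826778 to 126839844, had no H3K27ac outside NCI-H520, where 54.7% and 61.6%, and 60.7% and 64.1%, were covered. On chromosome 16, 50503343 to 50513136, NCI-H520 was covered throughout, LK2 over 17.04% and 11.8%, LK2_GFP over 10.3% and LK2_DNp63 over 13.2%. The cluster on chromosome 5, 134996834 to 135011286, had 55.0% and 76.5% in NCI-H520, 8.23% in HCC95 and 2.39% in LK2_GFP. A different case was chromosome 8, 124512567 to 124525951, where library 1 of NCI-H520 had no peak and library 2 covered 36.3%.

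On a wider scale private sites were uneven along the genome. Of the 2134 windows of 1 Mb with a private site, 62 held 10 or more, and the median was 2. The fullest were chromosome 1, 44000001 to 45000000, and chromosome 5, 123000001 to 124000000, with 23 private sites each. They held 31 and 38 NCI-H520 Sox2 sites in all, and 52.7% of the whole list was private. The windows named below on chromosomes 8 and 4 held 16 private sites each, of 19 and 17. Whether private sites were more uneven than all NCI-H520 Sox2 sites was not tested. In the chromosome 5 window 21 of the 23 were marked in both NCI-H520 libraries and 17 in no other line. In the chromosome 1 window 20 were marked in NCI-H520, and 3 of them in no other line. On chromosome 8, 9000001 to 10000000, which holds 2 of the clusters above, 14 of 16 were marked in NCI-H520 alone, whereas on chromosome 4, 1000001 to 2000000, none of 16 were.

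A stretch of chromosome 1 stood out by the width of its sites and was chosen after the widths were seen. Of the 20 widest private sites, 8 lay between 39 and 46 Mb of chromosome 1, a stretch that holds 82 private sites (1.29%). Their median width was 727.5 bp against 445 bp elsewhere, and the 34 other sites there were wide too, with 805.5 bp against 505 bp. Both NCI-H520 libraries marked 70.7% of the 82 sites, and 78.0% were marked in at least 1 other line, against 40.3% and 35.8% elsewhere. Outside this stretch, several more of the 20 widest sites lay close together on chromosome 1, between 118104378 and 118472742. The widest private site of all, 6502 bp on chromosome 7 from 61967114, was marked in no line. The inputs that would show how evenly reads fell over such stretches were not analysed here.

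By chromosome, the private share of the NCI-H520 sites ran from 44.1% on chromosome 13 (interval 38.2 to 50.1) to 71.3% on chromosome X (66.2 to 76.0). Chromosome X held 328 NCI-H520 sites, 234 of them private. It took 2.72% of all NCI-H520 Sox2 peaks and 0.427% to 2.49% of the peaks of the 6 other Sox2 lists. The next highest were chromosome 16 with 64.0%, chromosome 22 with 64.0% and chromosome 19 with 61.4%.

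The sites found in 1 background alone were counted in the same way for the other Sox2 lines, leaving the lists of the same background out of each comparison. NCI-H520 had 6345 such sites, HCC95 7380, KNS62 4289, LK2 3604 and HCC2814 2414. The line's own H3K27ac share at its sites exceeded the mean of the other 12 lines by 33.2 points in NCI-H520, and the excess was 30.7 points for HCC95, 28.8 for KNS62, 14.9 for LK2 and 8.38 for HCC2814. As a ratio to that mean LK2 came close to NCI-H520, with 3.03 against 3.17, and HCC95 had 2.54, KNS62 2.30 and HCC2814 1.42. The mean of the other lines was 15.3% ± 2.09 for NCI-H520, 7.34% ± 2.55 for LK2 and 19.9% ± 9.09 for HCC95 (SD, n = 12 lines each). Higher acetylation in the line of origin than in the mean of the other lines was therefore shared by all of these sets. HCC2814 alone was not the highest line at its own sites, since its share of 28.4% was exceeded by LC-1/SQSF with 30.8%. These counts share lists with one another and were not tested against each other.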

How the data were processed

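Peak lists of 27 ChIP-seq samples were used, and 16 input samples were not analysed here. Per the submitters' processing notes, alignment used Bowtie2 and the build hg19 (GRCh37). The deposited lists give each peak's position, a name beginning with MACS and a score of at least 50, which is the authors' own value. The score's scaling, the peak caller's settings and any use of inputs remain not given in the sources used here. Peaks were listed per sample, and 2092 of 652792 peaks outside chromosomes 1 to 22 and X were left out.

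Sites overlapped with 1 bp in common. Shares were computed per library and averaged per line (the unit of replication). Two-sided exact permutation tests compared lines with each other, or private with other sites within each line (sign-flip). The 4 tests were adjusted by Benjamini-Hochberg. Overlap functions were tested on simulated data (numpy 2.4.6, pandas 2.3.3, scipy 1.17.1).

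The named regions were the private sites of highest score, 10 of all, 10 with NCI-H520 Brn2, 10 marked in NCI-H520 alone, 5 marked in all 13 lines and 5 marked in no library, and the 10 clusters with most sites. The members and lists were chosen with earlier results of these data known. No genome or annotation of hg19 was used here, so planned motif and gene lists were not run and no sequence or gene name is given. Tables of GRCh38 were not used for coordinates. Alternatives covered the overlap rules, list lengths, site widths and libraries left out.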

Additional observations from a re-analysis of the deposited data

How the results depend on the processing

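Depth is unknown, each Sox2 and Brn2 list is a single library, and a site missing from a list may have been missed. A peak of the single NCI-H520 Sox2 library may also be a background call, and how many private sites are such calls was not tested. Private sites made up 73.3% of the lowest score decile (scores 50.01 to 57.95) and 22.5% of the highest. The excess of NCI-H520 over the 12 other lines kept its direction in all 27 alternatives, between 27.8 and 49.1 points (31.8 to 34.6 with a library or line left out), at an exact p of 0.0769 or 0.0833. The lower acetylation of private sites in the other lines stayed past the threshold in all 29, between -14.4 and -8.15 points (-11.6 to -10.0 with a line or library left out). Averaged within deciles of the Sox2 score, an alternative added after seeing the data, it was -13.8. The comparison of that difference between NCI-H520 and the other lines has no stable sign. Instead of 0.767 it was -0.0651 with Sox2 peaks of other lists counted within 1000 bp, -0.201 for H3K27ac at the site centre, -0.0196 for an H3K27ac overlap of at least 50%, -2.63 with equal numbers of top H3K27ac peaks, -2.03 without NCI-H520 H3K27ac library 2 and -0.403 without LK2, and it reached 7.96 within score deciles. With a line or library left out it ran from -2.03 to 3.56. The excess of LK2 ran from 0.576 to 12.51 over 26 alternatives and from 0.888 to 6.40 with a line or library left out, the lowest of these without LK2 library 1, and its exact p from 0.0833 to 0.917.

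The share of private sites marked in NCI-H520 was 61.7% with equal numbers of top Sox2 peaks (2274 private sites), 55.5% in the part of the NCI-H520 list above its median score (2423 sites), 42.5% at the site centre, 50.7% within 1000 bp, 42.7% with an overlap of at least 50% and 39.2% with equal numbers of top H3K27ac peaks, and 47.1% to 49.9% by single library. NCI-H520 Brn2 was at 2.42% of private sites with equal numbers of top Sox2 peaks and at 1.65% in the part of the NCI-H520 list above its median score. LK2 Brn2 was at 3.24% without the LK2 derivatives, at 4.22% with equal numbers of top Sox2 peaks and at 0.867% with equal numbers of top Brn2 peaks. The cause of these shifts was not tested. The share of private sites in clusters followed the gap, from 1.97% at 5000 bp to 18.2% at 50000 bp. Of 35 named sites, 27 to 30 kept their number of marked other lines under each of 5 H3K27ac rules. No paired analysis was possible because the replicate numbers that LK2 and NCI-H520 share name libraries of different lines, and the comparison is between lines.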
